A study of Rattus norvegicus with 12 samples.

Results

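The AP-1 subunit genes of the Fos family (Fos, Fosb, Fosl1 and Fosl2) and the Jun family (Jun, Junb and Jund) were followed in skin-derived precursors (SKPs), dermal precursor cells that grow as floating spheres. Members were taken by gene symbol, and 6 of the 7 had a row with that single symbol among 18166 genes. Fosl2 was not analysed here. All 6 lay above the low-signal limit and were among the 13636 genes tested. Jun had 2 rows, and the brighter is used unless the dimmer is named.

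The cells came from newborn Sprague-Dawley rat pups, in 3 independent isolates, and were grown in medium with FGF2 and EGF. Cells of dissociated secondary spheres were kept for 24 h with 100 nM trimebutine maleate plus 100 nM trametinib, with 100 nM trimebutine maleate, with 100 nM alprostadil, or with vehicle. Each of the 4 groups had 3 arrays, for 12 in all, each with its own replicate number. Trametinib blocks the kinase MEK and thereby the activation of ERK, and no group used here received it without trimebutine. The vehicle is not named in the sources used here. Alprostadil is prostaglandin E1, and trimebutine is a gut motility drug. Levels below are the authors' normalized log2 values of the array, and differences are log2 differences of group means with the standard error (SE) of a limma fit over all genes. A gene passed at a Benjamini-Hochberg adjusted p under 0.05 over the 13636 genes. On this scale a level cannot be set against the level of another gene.

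AP-1 is a family of dimeric transcription factors that bind DNA through a basic region and a leucine zipper. Jun proteins pair with each other or with Fos proteins, while Fos proteins need a Jun partner. Fos, Fosb and Junb are immediate early genes whose transcripts peak soon after a stimulus and then decline. Fosl1, which encodes FRA1, is a known output of lasting ERK activity, and in mouse fibroblasts JunD is known as a brake on proliferation. AP-1 is known for inducing matrix metalloproteinases in dermal fibroblasts.

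Pairs of arrays within a group had correlations of 0.985 to 0.991 over all genes. Markers of SKPs and dermal precursors spread widely in vehicle (SD, n = 3), with 10 measured. The dermal mesenchymal genes Vim (13.51 ± 0.04), Fn1 (13.33 ± 0.04), Col1a1 (12.85 ± 0.06), Vcan (12.63 ± 0.05) and Pdgfra (12.49 ± 0.04) were among them. Nes had 8.66 ± 0.13, Ngfr 8.39 ± 0.04, Sox9 6.63 ± 0.06 and Twist1 6.28 ± 0.11. Sox2, a marker of SKPs, had 6.76 ± 0.63 there. All 12 macrophage and leukocyte markers measured lay above the low-signal limit in vehicle, from Aif1 at 6.56 ± 0.29 to Cd68 at 10.76 ± 0.12. Tyrobp had 8.88 ± 0.91, C1qb 7.39 ± 0.36, Ptprc 7.25 ± 1.11, Itgam 7.17 ± 0.46 and C1qa 7.15 ± 0.12. Of keratinocyte markers, Epcam (3.35 ± 0.04) lay below the low-signal limit of 5.83 there and the other 5 measured were between 5.94 and 6.30. Of 7 melanocyte markers 4 lay below it, Tyr (3.85 ± 0.21) among them, while Mitf had 10.84 ± 0.18, Sox10 7.08 ± 0.09 and Pmel 6.497 ± 0.15. The ERK feedback genes Dusp6 and Spry4, which MEK inhibitors are known to lower, were lower with trametinib. Dusp6 averaged 8.38 ± 0.30 with trimebutine and trametinib and 11.60 ± 0.14 with trimebutine (SD, n = 3 each), and Spry4 averaged 7.90 ± 0.20 and 9.91 ± 0.07 in the same groups.

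The combination against trimebutine alone asked how adding a MEK inhibitor alters expression. The AP-1 genes went in opposite directions. Fosl1 fell 3.27-fold and Jund rose 2.85-fold, with smaller changes for Fos, which rose, and Jun, which fell. Of the 6 members tested, 4 passed, where 33.4% of all genes tested passed. The 2 that rose stand beside 16.8% of genes that rose, and the 2 that fell beside 16.6% that fell. Fosb and Junb did not pass.

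Fosl1 stood at 9.02, 9.15 and 8.93 with trimebutine and trametinib (replicates 1 to 3), against 10.73, 10.91 and 10.58 with trimebutine. The other levels were 10.61, 10.73 and 10.57 with alprostadil, and 10.80, 10.84 and 10.61 with vehicle. The 3 arrays with trametinib were the lowest of the 12, and the other 3 groups overlapped. The difference from trimebutine was −1.71 (SE 0.10, 95% interval −1.92 to −1.50, limma adjusted p = 2.18e-07), and from vehicle it was −1.72 (SE 0.10, limma adjusted p = 1.97e-07). These comparisons share the arrays with trametinib. Within replicate numbers the falls from trimebutine were −1.71, −1.76 and −1.65, an SD of 0.06 (n = 3). By size of this difference Fosl1 ranked 149 from the bottom among 13636 genes. Against vehicle 4 of 6 members passed as well, the same genes in the same directions, where 35% of all genes did.

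Jund moved the other way. Its levels were 9.94, 10.29 and 10.26 with trimebutine and trametinib, against 8.51, 8.65 and 8.80 with trimebutine. They were 8.42, 8.68 and 8.82 with alprostadil, and 8.59, 8.60 and 8.67 with vehicle. The lowest array with trametinib lay above the highest of the other 9, which overlapped among themselves. The difference from trimebutine was 1.51 (SE 0.12, 95% interval 1.25 to 1.77, limma adjusted p = 2.49e-06), which ranked 82 from the top among all genes tested. From vehicle the difference was 1.54 (SE 0.12, limma adjusted p = 2.02e-06). Within replicate numbers Jund was 1.43, 1.64 and 1.47 higher than with trimebutine.

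**Figure D1:**
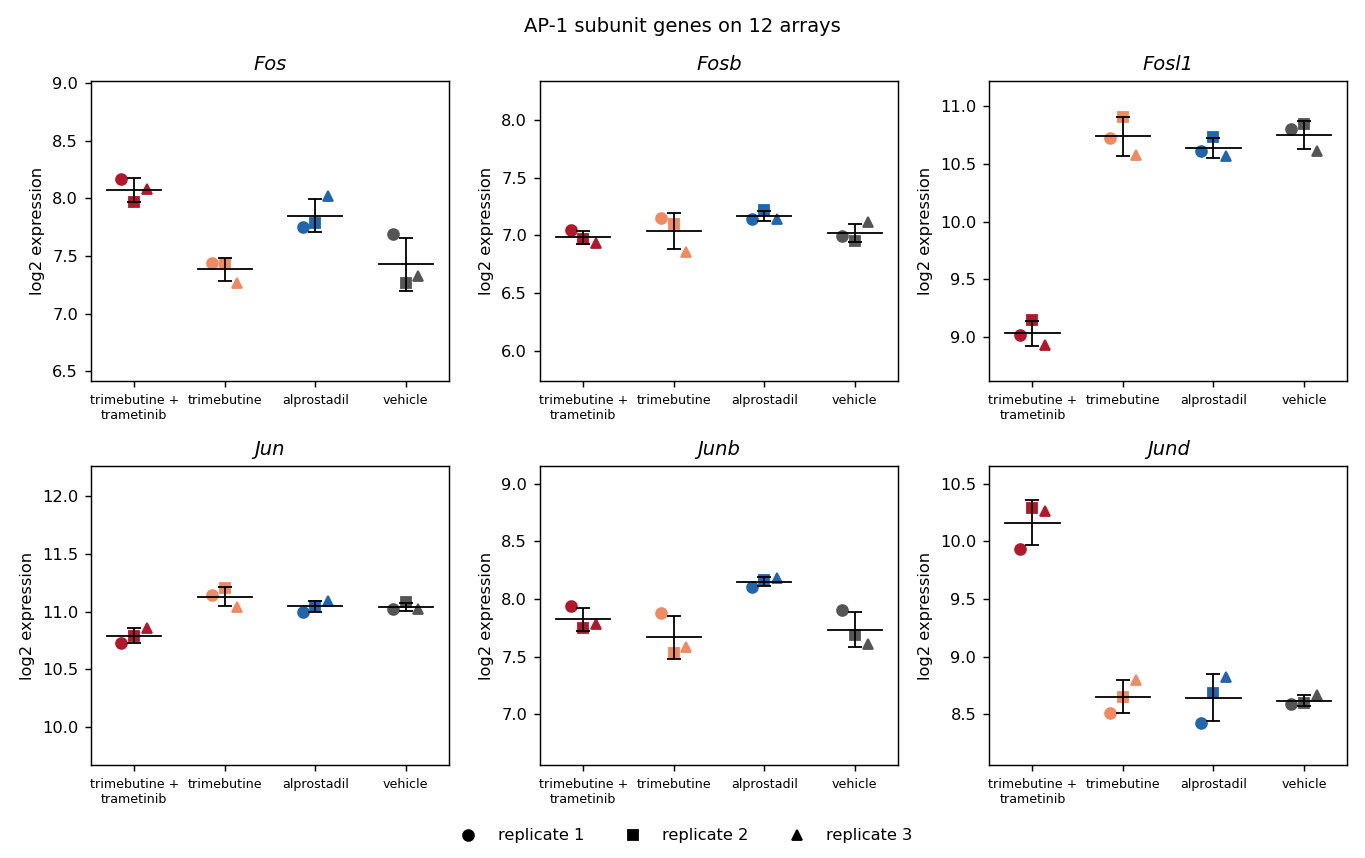
Log2 expression of 6 AP-1 subunit genes on 12 arrays. Points are arrays, shaped by replicate number, lines and bars are the mean and SD of 3 arrays, and each vertical axis spans the same number of log2 units. With trimebutine and trametinib, Fosl1 averaged 9.03 and Jund 10.16, against 10.74 and 8.65 with trimebutine.

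The promoters of Fosl1 and Jund are shown because these members moved furthest and in opposite directions, and that of Junb because it was the member with the smallest p with alprostadil. Each runs 5′ to 3′ from 250 bases before the annotated gene start to 50 bases after it, in the RefSeq table for GRCr8. They lie at chr1:212183635-212183934 on the plus strand (Fosl1), chr16:18769722-18770021 on the minus strand (Jund) and chr19:40080876-40081175 on the plus strand (Junb). Capitals mark the cyclic AMP response element TGACGTCA and its shorter form TGACG, read on both strands.
Fosl1: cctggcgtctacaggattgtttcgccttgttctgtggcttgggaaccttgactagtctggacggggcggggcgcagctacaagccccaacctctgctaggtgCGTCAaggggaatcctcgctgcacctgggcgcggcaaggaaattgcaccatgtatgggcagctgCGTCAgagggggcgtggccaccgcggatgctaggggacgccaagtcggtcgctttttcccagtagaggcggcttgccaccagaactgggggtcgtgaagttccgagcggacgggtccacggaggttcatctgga
Jund: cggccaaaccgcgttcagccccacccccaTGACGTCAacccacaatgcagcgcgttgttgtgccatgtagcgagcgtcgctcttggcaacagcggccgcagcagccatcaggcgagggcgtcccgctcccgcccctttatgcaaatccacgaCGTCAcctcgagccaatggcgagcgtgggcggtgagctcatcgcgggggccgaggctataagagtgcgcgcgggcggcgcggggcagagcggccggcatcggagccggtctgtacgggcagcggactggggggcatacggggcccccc
Junb: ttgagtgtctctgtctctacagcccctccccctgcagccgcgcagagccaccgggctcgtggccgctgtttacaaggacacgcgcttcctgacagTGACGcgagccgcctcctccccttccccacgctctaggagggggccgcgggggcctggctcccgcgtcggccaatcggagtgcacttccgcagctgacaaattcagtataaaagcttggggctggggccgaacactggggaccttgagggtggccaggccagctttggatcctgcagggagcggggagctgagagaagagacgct
The whole element was found in Jund, 221 to 214 bases upstream of the start, and 1.83% of 33469 rat promoter windows of the same length hold it. The shorter form, which the whole element contains, was found in these 3 of the 5 member promoters read, not in Fosb or Fosl2, and is in 21.2% of windows. In Fosl1 it ends 144 and 80 bases upstream and in Junb 151 bases upstream. The TPA response element TGACTCA, the classical AP-1 site, was in none of the 5 member promoters read (Fosb, Fosl1, Fosl2, Junb and Jund) and is in 4.63% of windows. No CArG box, the binding site of SRF, was found in them either (1.64% of windows). These are matches of letters in 1 window per gene.

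Fos, an immediate early gene and a partner of Jun proteins, had 8.17, 7.97 and 8.08 with trimebutine and trametinib, against 7.44, 7.44 and 7.27 with trimebutine. With alprostadil it had 7.75, 7.79 and 8.02, and with vehicle 7.69, 7.27 and 7.33. The arrays with trametinib lay above all those with trimebutine or vehicle and overlapped those with alprostadil. Fos rose by 0.69 (SE 0.11, 95% interval 0.44 to 0.94, limma adjusted p = 0.000707), a 1.61-fold difference. Against vehicle it rose by 0.64 (SE 0.11, limma adjusted p = 0.0011). A rise of Fos and a fall of Fosl1 were seen within every replicate number.

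Jun had 10.73, 10.79 and 10.86 with trimebutine and trametinib, against 11.15, 11.20 and 11.04 with trimebutine. It had 10.999, 11.05 and 11.09 with alprostadil, and 11.02, 11.08 and 11.02 with vehicle. The trametinib arrays were below all others, by a small margin. Jun fell by 0.34 on the log2 scale (SE 0.06, 95% interval −0.47 to −0.20, limma adjusted p = 0.00124) from trimebutine and by 0.25 (SE 0.06, limma adjusted p = 0.00783) from vehicle. The dimmer Jun row did not pass. It had 8.47, 8.62 and 8.53 with trimebutine and trametinib against 8.76, 8.85 and 8.46 with trimebutine, a difference of −0.15 (limma adjusted p = 0.297, chosen after the values were seen). With the mean of both rows the difference from trimebutine passed (−0.24, limma adjusted p = 0.0276) and those from vehicle (−0.16, limma adjusted p = 0.124) and from alprostadil (−0.17, limma adjusted p = 0.108) did not.

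Fosb had 7.04, 6.97 and 6.94 with trimebutine and trametinib, against 7.15, 7.10 and 6.86 with trimebutine, and these groups overlapped. The difference was −0.05 (95% interval −0.22 to 0.12, limma adjusted p = 0.663). Junb, which encodes a Jun protein with weaker activity as a homodimer than Jun, had 7.94, 7.75 and 7.79 with trimebutine and trametinib. With trimebutine it had 7.88, 7.53 and 7.58, which overlapped. Its difference was 0.16 (95% interval −0.06 to 0.38, limma adjusted p = 0.267). The intervals leave room for changes of Fosb up to 0.22 and of Junb up to 0.38 in size.

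Jun minus Jund, taken on each array, differed by −1.85 between trimebutine with trametinib and trimebutine, and Fos minus Fosl1 differed by 2.40. All 15 pairs of members gave an exact permutation p = 0.1 (two-sided, n = 3 each), raw and after Benjamini-Hochberg adjustment, the smallest that 3 arrays against 3 can give, so this test could not pass at 0.05 and makes no call.

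**Figure D2:**
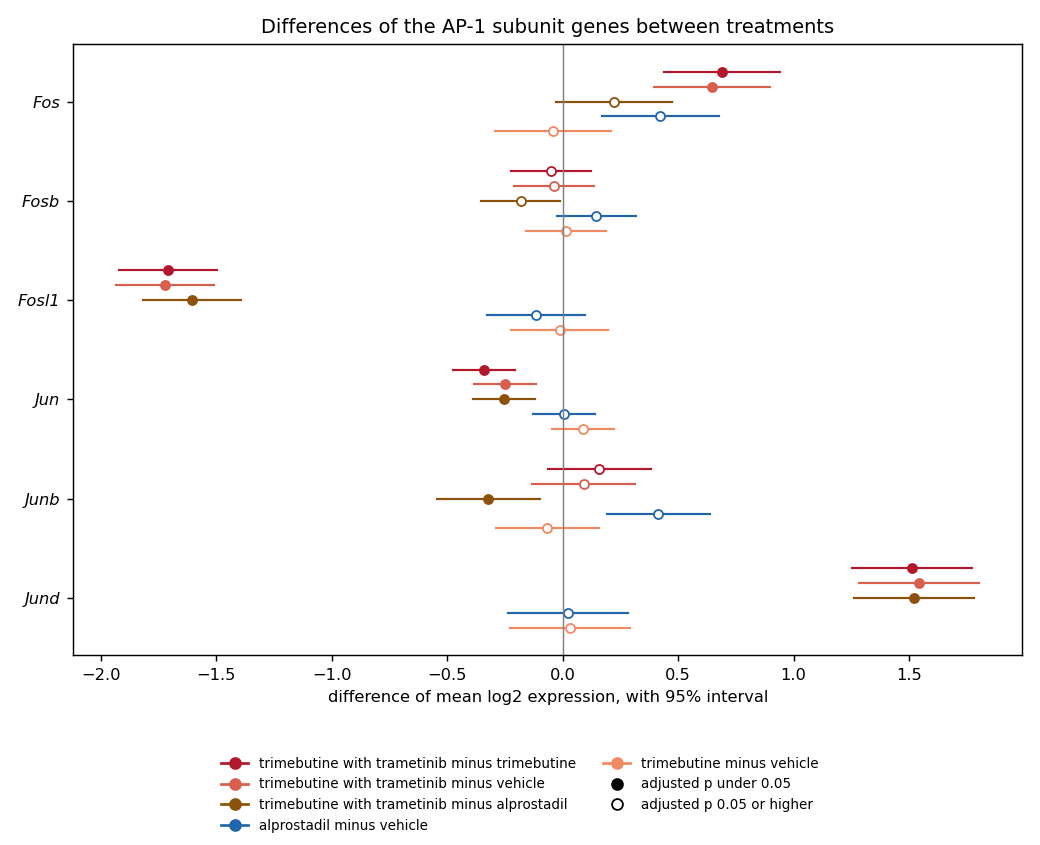
Differences of mean log2 expression of 6 AP-1 subunit genes in 5 comparisons, with 95% intervals from limma. Filled points passed at an adjusted p under 0.05. Fosl1 (−1.71) and Jund (1.51) stand far from 0 in the comparisons with trametinib, and the trimebutine points lie within 0.09 of 0.

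Alprostadil against vehicle asked what the prostaglandin does alone. No member passed without the replicate number in the fit, where 0.389% of genes passed, and at an unadjusted p under 0.05 the count was 950 genes. Junb, Fos and Fosb had all 3 alprostadil arrays above all 3 vehicle arrays. Such a separation, with alprostadil higher, was found for 5.41% of genes.

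Junb had 8.10, 8.16 and 8.18 with alprostadil, against 7.90, 7.69 and 7.61 with vehicle, so that the groups did not overlap. The difference was 0.41 (SE 0.10, 95% interval 0.19 to 0.64, limma adjusted p = 0.172), a 1.33-fold difference. Arrays with the same replicate number deviated together from their group means. With the number as a block Junb passed (SE 0.08, limma adjusted p = 0.0234). With the block 1.88% of genes passed. Within numbers the differences were 0.20, 0.47 and 0.57. The blocked call was lost without alprostadil replicate 2 or 3 or without vehicle replicate 1, 2 or 3, with adjusted p from 0.0718 to 0.141, and was kept without alprostadil replicate 1.

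Fos had 7.75, 7.79 and 8.02 with alprostadil, against 7.69, 7.27 and 7.33 with vehicle. Vehicle replicate 1 was the highest of its group and lay just under the alprostadil arrays. The difference was 0.42 (SE 0.11, 95% interval 0.17 to 0.67, limma adjusted p = 0.233, and limma adjusted p = 0.0855 with the block). It passed in 1 run only, with the block and without vehicle replicate 1 (0.55, limma adjusted p = 0.0463). Fosb had 7.15, 7.22 and 7.14 with alprostadil, against 6.999, 6.95 and 7.11 with vehicle, a difference of 0.15 (95% interval −0.03 to 0.32, limma adjusted p = 0.787).

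For Fosl1, Jun and Jund the alprostadil and vehicle groups overlapped and no difference passed. The values were −0.12 for Fosl1 (95% interval −0.33 to 0.10), 0.01 for Jun (95% interval −0.13 to 0.14) and 0.02 for Jund (95% interval −0.24 to 0.28). Within replicate numbers Fosl1 was lower with alprostadil in all 3 pairs, with differences of −0.19, −0.11 and −0.05, and with the block its 95% interval was −0.23 to 0.0022 (limma adjusted p = 0.387). The intervals for Fosl1 and Jund do not reach the changes these genes had with trametinib.

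Trimebutine against vehicle asked what the drug changes alone. No member passed, as was true of all genes by limma, both without the block (0% called) and with it (0 called). At an unadjusted p under 0.05 the count was 143 genes without the block and 252 with it. The 6 differences ran from −0.07 (Junb) to 0.09 (Jun), all groups overlapped, and the 95% intervals together ran from −0.29 to 0.29. Changes of Fosl1 or Jund of the size seen with trametinib lie outside these intervals.

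The combination was also set against alprostadil, where 4 of 6 members passed and 37.9% of all genes did. Fosl1 fell by 1.61 on the log2 scale (SE 0.10, limma adjusted p = 3.09e-07), Jun fell by 0.26 (SE 0.06, limma adjusted p = 0.00634) and Junb fell by 0.32 (SE 0.10, limma adjusted p = 0.0261). Jund was higher by 1.52 (SE 0.12, limma adjusted p = 2.23e-06). Junb lost its call without alprostadil replicate 2 or 3 or without combination replicate 2 or 3, with adjusted p from 0.0661 to 0.0908. Fos was 0.22 higher with the combination and did not pass (95% interval −0.03 to 0.47, limma adjusted p = 0.153), and the difference of −0.18 for Fosb did not pass either (limma adjusted p = 0.0894).

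Over the 4 groups, a moderated F test called 5 of 6 members, where 32.5% of genes were called. The member not called was Fosb (adjusted p = 0.295), and with the mean of both Jun rows Jun was not called either (4 of 6). By group mean, Fosl1 ran from trimebutine with trametinib, the lowest, through alprostadil and trimebutine to vehicle, and the last 3 overlapped. Jund ran from vehicle through alprostadil and trimebutine, which overlapped, to the combination. Fos ran from trimebutine through vehicle, which overlapped, then alprostadil, to the combination, and the last 2 overlapped. Jun ran from the combination to vehicle, alprostadil and trimebutine, and the last 3 overlapped. Junb ran from trimebutine through vehicle and the combination, which overlapped in neighbouring pairs, to alprostadil, whose arrays lay above all others. Fosb ran from the combination through vehicle and trimebutine to alprostadil. Its neighbours overlapped at each step, and its means spanned 0.18.

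**Figure D3:**
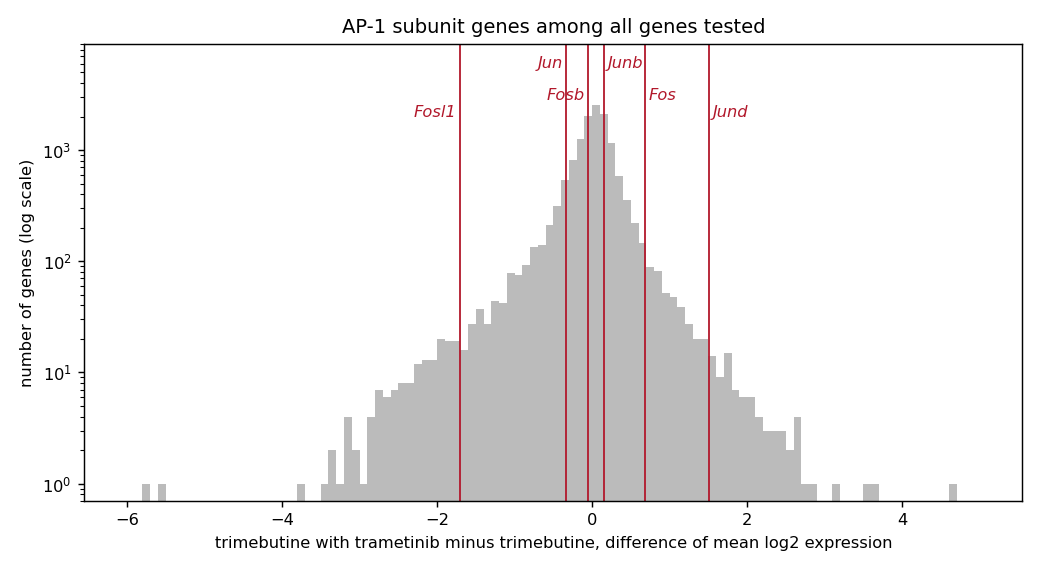
Distribution of the difference between trimebutine with trametinib and trimebutine over 13636 genes, as the number of genes (log scale) per bin of log2 difference. Red lines mark the 6 AP-1 subunit genes, with Fosl1 at −1.71 in the lower tail and Jund at 1.51 in the upper tail.

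Known AP-1 target genes were followed in a fixed list chosen with earlier results of these data known. With trametinib added, 20 of 29 measured targets fell, 2 rose and 7 did not pass, with a median of −0.88 beside 0.03 over all genes. Over all genes tested in this comparison 16.6% fell and 16.8% rose. The 4 targets with the smallest p were Hmga2 (−2.49) and Hmga1 (−1.72), which encode chromatin proteins, and the collagenase gene Mmp13 (−5.75) and the stromelysin gene Mmp3 (−5.55). Mmp13 averaged 6.46 ± 0.85 with trimebutine and trametinib and 12.22 ± 0.17 with trimebutine (SD, n = 3 each). The urokinase gene Plau (−2.24), its receptor gene Plaur (−1.03) and the integrin gene Itga2 (−1.82) also fell. The cytokine gene Il6 (2.15) and the endothelin gene Edn1 (0.63) rose. With alprostadil (0.389% of all genes passed), 4 of 29 targets rose and 1 fell, with a median of −0.06 beside −0.01 over all genes. Those that rose were Vegfa (0.73), Lif (1.19), Il6 (2.60) and Il11 (0.77), and the member that fell was the receptor kinase gene Axl (−0.37). With trimebutine 0 of 29 passed.

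The stretches before 3 metalloproteinase genes on chromosome 8 are shown because these targets fell furthest among those with a TPA response element close to the start. Each runs from 100 to 31 bases upstream on the plus strand of GRCr8, and capitals mark the element TGACTCA or its reverse complement TGAGTCA. They lie at chr8:12782729-12782798 (Mmp13), chr8:12925181-12925250 (Mmp3) and chr8:12974607-12974676 (Mmp10).
Mmp13: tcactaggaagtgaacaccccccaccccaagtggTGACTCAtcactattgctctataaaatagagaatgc
Mmp3: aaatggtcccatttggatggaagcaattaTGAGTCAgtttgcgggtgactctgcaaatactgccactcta
Mmp10: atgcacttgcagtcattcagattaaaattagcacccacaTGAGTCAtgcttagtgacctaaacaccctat
Of 22 listed targets with a promoter window, 5 held the element, which were these 3, Plaur and Il11, beside 4.63% of all windows. The match started 66 bases upstream in Mmp13, 71 in Mmp3 and 61 in Mmp10. Mmp10 averaged 5.29 ± 0.21 with trimebutine and trametinib, below the low-signal limit of 5.83, and 9.03 ± 0.39 with trimebutine (SD, n = 3 each). Il11, which also holds the element and averaged 5.86 and 6.08 in these groups, had a difference of −0.22 and did not pass (limma adjusted p = 0.214). A match does not show that AP-1 binds there.

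Output genes of ERK were nearly all lower with trametinib, with 10 of 11 falling and 1 rising (median −0.77), beside 16.6% of all genes that fell. The phosphatase genes Dusp5 (−3.00) and Dusp6 (−3.23) and the feedback inhibitor gene Spry4 (−2.01) fell, and Spry2 (0.58) rose. With alprostadil Phlda1 (1.09) rose and the other 10 did not pass, where 0.389% of all genes passed.

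Other immediate early genes did not move as 1 group with trametinib. Of 26 measured, 12 rose, 6 fell and 8 did not pass (median 0.20), beside 16.8% of all genes that rose and 16.6% that fell. Those with the smallest p that rose were Klf2 (1.58), Rhob (1.93) and Klf6 (1.02), and Klf10 (−1.07) fell. Egr1 (−2.55), Egr2 (−1.98) and Egr3 (−1.56), which encode zinc finger factors induced by growth factors, fell. The orphan nuclear receptor genes Nr4a1 (1.76), Nr4a2 (0.72) and Nr4a3 (2.42) rose, as did Fos. With alprostadil 2 of 26 rose, Nr4a1 (2.46) and Ier3 (0.59), where 0.389% of all genes passed. With the replicate block 3 rose and 3 fell, where 1.88% of all genes passed. The third to rise was Nr4a3 (0.88), and those that fell were Ccn2 (−0.74), Klf4 (−0.53) and Klf6 (−0.32).

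Among 23 measured dimer partners and relatives of the AP-1 proteins, all of the bZIP class, 11 rose with trametinib, 2 fell and 10 did not pass (median 0.15), beside 16.8% of all genes that rose and 16.6% that fell. Atf5 (1.85), the stress factor genes Ddit3 (0.74) and Atf3 (1.34), and Jdp2 (0.64), which encodes a repressor that pairs with Jun proteins, rose. Nfe2l2 (−0.59), which encodes the antioxidant regulator NRF2, and Batf3 (−0.76), another Jun partner, fell. With alprostadil Crem (0.49), a cyclic AMP responsive bZIP gene, rose and the other 22 did not pass, where 0.389% of all genes passed.

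Genes upstream of AP-1 went both ways with trametinib, with 5 of 22 rising and 6 falling (median 0.07), beside 16.8% of all genes that rose and 16.6% that fell. Elk3 (−0.99), an ETS factor gene, and Rps6ka2 (−1.08), which encodes a kinase downstream of ERK, fell, while Mef2c (1.23) and Mef2d (0.42) rose. The MEK gene Map2k1 (−0.24) fell and Map2k2 (0.25) rose. With alprostadil the JNK gene Mapk10 (1.02) rose and 21 did not pass, where 0.389% of all genes passed. Of 9 regulators of AP-1 protein or transcript stability, 3 rose with trametinib and 1 fell, where 33.4% of all genes passed in either direction. With the replicate block 2 fell, with Usp28 (−0.19) added, where 5723 of 13636 genes passed. The 3 that rose were Zfp36l1 (0.57), Zfp36 (0.47) and Zfp36l2 (0.26). They encode proteins that bind AU-rich elements and hasten the decay of transcripts, FOS mRNA among those known. The member that fell was Apex1 (−0.52), a DNA repair gene whose product keeps AP-1 cysteines reduced.

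**Figure D4:**
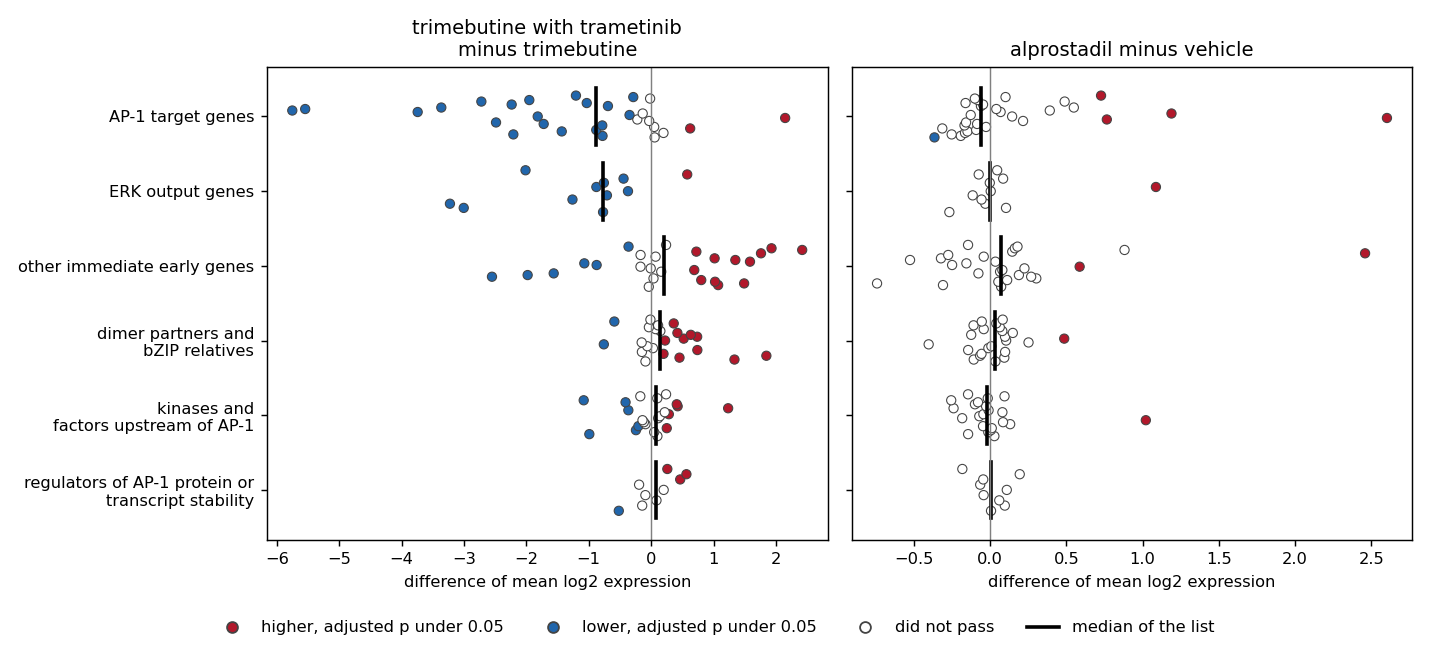
Log2 differences of the members of 6 gene lists, with trametinib added to trimebutine (left) and with alprostadil against vehicle (right, a narrower scale). Points are genes, filled where the adjusted p was under 0.05, and black bars are list medians. The medians of the AP-1 targets (−0.88) and ERK output genes (−0.77) lie below 0 with trametinib, and those of the other lists are within 0.20 of 0.

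Proliferation genes fell as Fosl1 did, while Jund rose. With trametinib added, all 11 measured fell (median −2.34, from −3.15 to −0.74), where 16.6% of all genes fell. Their mean level ran from 7.58 to 7.72 over the arrays with trimebutine and trametinib and from 9.69 to 10.08 with trimebutine. Of 5 smooth muscle genes 3 rose (Tagln 2.37, Myl9 1.19 and Actg2 0.97), where 16.8% of all genes did, and Des (−0.34) and Myh11 (0.02) did not pass. Their mean level ran from 8.47 to 8.65 and from 7.69 to 7.79 in the same groups. Of 12 macrophage and leukocyte markers 1 rose, C1qa (0.52), and 1 fell, Cd68 (−1.03), where 16.8% of all genes rose and 16.6% fell. With the replicate block, where 5723 of 13636 genes passed, 4 markers rose, with Csf1r (0.31), Cd74 (0.31) and C1qb (0.28) added. In that fit 3 markers fell, with Cd14 (−0.68) and Ptprc (−0.47) added. Their mean level ran from 7.37 to 8.22 with trimebutine and trametinib and from 7.49 to 8.54 with trimebutine, so the arrays of each group differed more than the groups. Of 6 Schwann and neural markers 1 rose, the neural gene Tubb3, which averaged 8.56 ± 0.10 with trimebutine and trametinib and 5.69 ± 0.06 with trimebutine (SD, n = 3 each). The trimebutine level lies under the low-signal limit, so Tubb3 was among the genes tested through its level with trametinib and its fold is not given. With the replicate block 2 of the 6 rose and 2 fell, beside the 5723 of 13636 genes that passed. Among 4 melanocyte markers Dct was called higher. Its vehicle level (5.71 ± 0.16, SD, n = 3) lies under the low-signal limit. Without the arrays with trametinib its mean would lie under that limit too. Like Tubb3, Dct was therefore among the genes tested through its level with trametinib. Its fold is not given and the call is not read as a rise. None of 5 keratinocyte markers or 4 endothelial markers passed. Beside the 16.8% of all genes that rose and 16.6% that fell stand 10 markers of SKPs and dermal precursors. Of these 1 rose, Col1a1 (0.56), and 2 fell, Pdgfra (−0.79) and Twist1 (−0.29). Their part in the AP-1 values was not tested. In these cultures a change in the mix of cells and a change in RNA per cell cannot be told apart.

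Genes with the profile most like each member were ranked by Pearson's r over the 12 arrays, as a description. The trametinib arrays stand apart for Fosl1 and Jund, and arrays with the same replicate number deviated together. The closest to Fosl1 were Kif11 (r = 0.997), Aspm (r = 0.997) and Rrm2 (r = 0.997), genes of mitosis and of nucleotide synthesis, with differences of −2.49, −1.86 and −3.12 when trametinib was added. The closest to Jund were Dnajb2 (r = 0.995), Zhx2 (r = 0.994) and Pde8a (r = 0.994), with differences of 0.87, 0.96 and 1.09. Those closest to Jun were Mrpl49 (r = 0.971), Slc27a3 (r = 0.969) and Cep57l1 (r = 0.965). Fos was closest to Csnk1e (r = 0.955), Ryk (r = 0.932) and Snapin (r = 0.925). Junb was closest to Gli2 (r = 0.925), Mindy1 (r = 0.893) and Tiprl (r = 0.885). Of these Gli2, a hedgehog pathway factor gene, rose with alprostadil (0.45, limma adjusted p = 0.0317). Fosb was closest to Ckmt1 (r = 0.906), Ttc1 (r = 0.866) and Atp5hl1 (r = 0.813).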

How the data were processed

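RNA from 12 cultures was measured on Affymetrix rat gene arrays with 1 label, biotin. The authors deposited 1 log2 value for each feature and array. Per the submitters' processing notes they used oligo and RMA, and versions are not given here. RMA equalises the arrays, so the values carry no information on the amount of RNA in a cell.

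Groups and replicate numbers came from sample titles. Of 36685 features, 18511 had 1 gene symbol, 575 several and 17599 none in the platform annotation supplied. Current symbols came from the GRCr8 table by Entrez identifier (18394 matched). The brightest feature per symbol was used, which gave 18166 genes, and genes with a mean under the 25th percentile, 5.83, were left out. A limma fit (limma 3.58.1, R 4.3.3) with a mean per group covered all 12 arrays, with 8 residual degrees of freedom, two-sided tests and Benjamini-Hochberg adjustment per comparison. The number of arrays limits the precision. The limma fit without the replicate block was tested on simulated data with known shifts. Noise was drawn independently for each array, so deviations shared by a replicate number were not simulated and their effect on this fit was not tested.

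Named genes were the members, up to 4 genes per list and comparison that passed, by smallest p, and the 3 genes most like each member. Others named complete a family or a count and were picked once their values were known. Members, lists and comparisons were chosen with earlier results of these data known. Srf, Maff, Fn1 and Sox10 stand in more than 1 list.

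Replicate numbers are shared across groups, and the study used 3 isolates. The sample titles do not say that a number marks the same isolate in all groups. Deviations from the group means correlated at 0.21 to 0.81 in the 18 array pairs that share a number. In the 36 that do not, they correlated at −0.71 to 0.10. Deviations cancel within a group, so positive values in pairs that share a number push the others down. The 2 ranges are therefore not separate observations. The main fit did not pair samples by number, and the number was used as a block in an alternative fit. The fit with the number as a block had 6 residual degrees of freedom. Alternatives were that block, other filters, other scalings, the mean of features, a variance trend, fits of 2 groups, and leaving out each array. Promoter sequences are RefSeq's, from the table for GRCr8, which held 5 of the 7 members.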

Additional observations from a re-analysis of the deposited data

How the results depend on the processing

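The falls of Fosl1 and the rises of Jund in the 3 comparisons with trametinib, and the rises of Fos against trimebutine and vehicle, passed in all 14 alternatives run for each. With the replicate block, 257 genes changed with alprostadil, all 53 of the fit without it among them, and 1 AP-1 member changed with alprostadil, Junb. The block changed no other call of a member. With only the 2 groups compared, 29 genes changed with alprostadil. Leaving out 1 array gave 30 to 42 genes for alprostadil, with 30 without vehicle replicate 2, 32 without vehicle replicate 3, 34 without alprostadil replicate 1 and 32 without alprostadil replicate 2. In such runs 3 to 4 members changed between the combination and alprostadil, 4 against trimebutine, 4 against vehicle, 0 with alprostadil or trimebutine alone, and 5 differed over the 4 groups. The stricter filter left Fosb out of the tests. Values that did not pass and lay near 0 changed sign in some runs. Fosb in the combination against vehicle was 0.00902 with arrays centred on their medians, and ran from −0.0716 to 0.0073 without an array. Without an array, trimebutine against vehicle ran from −0.125 to 0.088 for Fos, from −0.0438 to 0.102 for Fosb, from −0.100 to 0.0653 for Fosl1, from −0.175 to 0.0174 for Junb and from −0.0409 to 0.103 for Jund. Likewise alprostadil against vehicle ran from −0.0183 to 0.0294 for Jun and from −0.0659 to 0.133 for Jund, and Fosb with trametinib added from −0.140 to 0.00596. With the block as well, which was chosen after seeing the data, alprostadil against vehicle was −0.00856 for Jun and −0.0219 for Jund without vehicle replicate 3, −0.0263 for Jun and −0.0161 for Jund without alprostadil replicate 3, and −0.014 for Jund without vehicle replicate 2.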
